A study of Mus musculus with 4 samples.

Results

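The organic solute and ABC transporter genes on this array were all autosomal genes whose designed name begins with Slco, Slc22a, Slc10a or Abca to Abcg followed by a digit. These are the organic anion transporting polypeptides (Slco), the organic cation and anion carriers (Slc22a), the bile acid carriers and their relatives (Slc10a) and the ATP-binding cassette proteins (Abca to Abcg). Of 85 genes with such names, 3 lie on X and were kept apart, which left 82 of 20445 autosomal genes in 10 families. They were read by 245 probes, after 1 of 246 designed probes was left out for its outlier flags. There were 5 genes with 1 probe, 39 with 2 and 38 with at least 3, up to 10.

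Genomic DNA of 4 liver cell samples was measured by comparative genomic hybridisation on arrays, where 2 DNAs labelled with different dyes compete for each probe. All 4 samples, called replicates 1 to 4, carried the genotype TAK1LPC-KO_RIP3-_-, that is a knockout of TAK1 in liver parenchymal cells together with loss of RIP3. TAK1 is a kinase of TNF signalling and RIP3 a kinase of necroptosis. Each sample (Cy5) was set against 1 pool of 4 normal livers (Cy3), whose genotype and strain are not given in the labels. The labels also do not give the strain, age or sex of the mice, what drove the knockout, or whether the 4 samples came from separate animals, so the p-values speak for the variation among 4 samples, some or all of which may be technical. DNA came from formalin-fixed, paraffin-embedded sections, and there was 1 group, 1 pool and no dye swap. A log2 ratio is sample over pool: it is 0 where both channels gave equal signal, and a steady difference can lie in the samples, the pool or the dyes, which cannot be told apart.

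Hepatocytes take organic solutes up from blood across their sinusoidal membrane through Slc10a1, several Slco proteins and Slc22a carriers. They secrete bile salts, phospholipid, sterols and conjugated organic anions into bile across the canalicular membrane through ABC transporters, and export some of the same compounds back to blood through basolateral ABCC proteins. Other members of these families serve kidney, intestine, brain or testis, move lipids within cells or, like Abce1, act in translation and carry nothing across a membrane. The values here are of DNA and say nothing of how strongly any of these genes was expressed.

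The array used oligonucleotide probes of at most 60 bases, and the ratio of a gene rests on a few of them. The probes below show how far probes of 1 gene differed. They are the probes of highest and lowest mean ratio of 4 members, written 5′ to 3′ on build mm9 as in the array's design, without strand, with G and C in capitals because the ratio varied with the G and C content of the probe. The exon or intron each probe lies in was not analysed here.
Slco1b2 highest, chr6:141597036-141597095: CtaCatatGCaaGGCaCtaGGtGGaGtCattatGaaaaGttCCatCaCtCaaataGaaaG
Slco1b2 lowest, chr6:141606097-141606156: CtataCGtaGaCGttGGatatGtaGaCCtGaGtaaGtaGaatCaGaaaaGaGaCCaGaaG
Abcb11 highest, chr2:69097552-69097611: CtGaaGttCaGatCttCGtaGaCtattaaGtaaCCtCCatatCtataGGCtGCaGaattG
Abcb11 lowest, chr2:69159508-69159567: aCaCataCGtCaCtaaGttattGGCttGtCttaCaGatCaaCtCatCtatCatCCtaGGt
Slco4a1 highest, chr2:180203118-180203177: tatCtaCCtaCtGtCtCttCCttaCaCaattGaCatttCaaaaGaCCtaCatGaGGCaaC
Slco4a1 lowest, chr2:180199494-180199547: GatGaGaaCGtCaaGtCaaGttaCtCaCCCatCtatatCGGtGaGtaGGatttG
Abcb8 highest, chr5:23913473-23913528: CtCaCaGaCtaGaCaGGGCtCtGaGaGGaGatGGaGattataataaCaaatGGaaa
Abcb8 lowest, chr5:23900161-23900208: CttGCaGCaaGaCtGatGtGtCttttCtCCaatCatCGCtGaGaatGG

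The Slco1b2 probes lay above the pool by 1.31 ± 0.04 and 0.67 ± 0.31 on the log2 scale (SD, n = 4 here and below). Those of Abcb11 lay on opposite sides of it, at 0.83 ± 0.17 and -0.68 ± 0.13, although both hold 38.3% G and C. The highest and the lowest Slco4a1 probe had -0.42 ± 0.47 and -1.35 ± 0.13, with 38.3% and 42.6% G and C. For Abcb8 they had 0.06 ± 0.15 and -0.99 ± 0.39, with 41.1% and 45.8%.

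The arrays held 62976 spots each, of which 84.3% to 89.9% were well above background in Cy5 (samples) and 94.4% to 97.7% in Cy3 (pool). Slide 1 held replicates 1 and 2, and slide 2 held replicates 3 and 4. Precision is limited by having 4 arrays, and with 4 arrays the exact two-sided sign-flip test cannot give a p below 0.125. Map3k7, which encodes TAK1, had a mean log2 ratio of 0.65 ± 0.13 (limma, adjusted p = 0.00192), and Ripk3, which encodes RIP3, -0.08 ± 0.06 (adjusted p = 0.370). Their probes' place relative to the deleted exons was not analysed here, so neither value checks the genotype.

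The question put to the members was whether their ratio differed from that of the pool. A gene was called where limma gave a Benjamini-Hochberg adjusted p under 0.05 over all autosomal genes and the mean log2 ratio was at least 0.25 from 0. Of the 82 members, 13 were called higher and 13 lower than the pool, and 56 were not called. With normexp background correction the split was 9 higher and 18 lower, or 32.9%, and over all genes 3333 higher and 4877 lower, or 40.2%. The 26 called members are 31.7% of all, against a background of 35.4% among the 20445 autosomal genes, of which 16.1% were higher and 19.3% lower. The share lies near the background, so the count is not a result about transporter genes. The median ratio of the members was -0.02, against -0.01 over all genes, and the median SD between arrays was 0.16 in both.

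All 26 called members had 1 sign on all 4 arrays, which the call rule favours because it uses the same arrays. Over all 82, 41 members, or 50%, had 1 sign, against 54.5% of all genes. Only 5 members were called at a size limit of 0.5, where the background was 11.7%. These were Slco1b2 and Abcg3 on the higher side and Abcc6, Abca2 and Slco4a1 on the lower side. Slco1b2, Abcb4, Abcc6, Abca2 and Slco4a1 kept their calls in all 8 processing alternatives and without any 1 replicate.

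**Figure D1:**
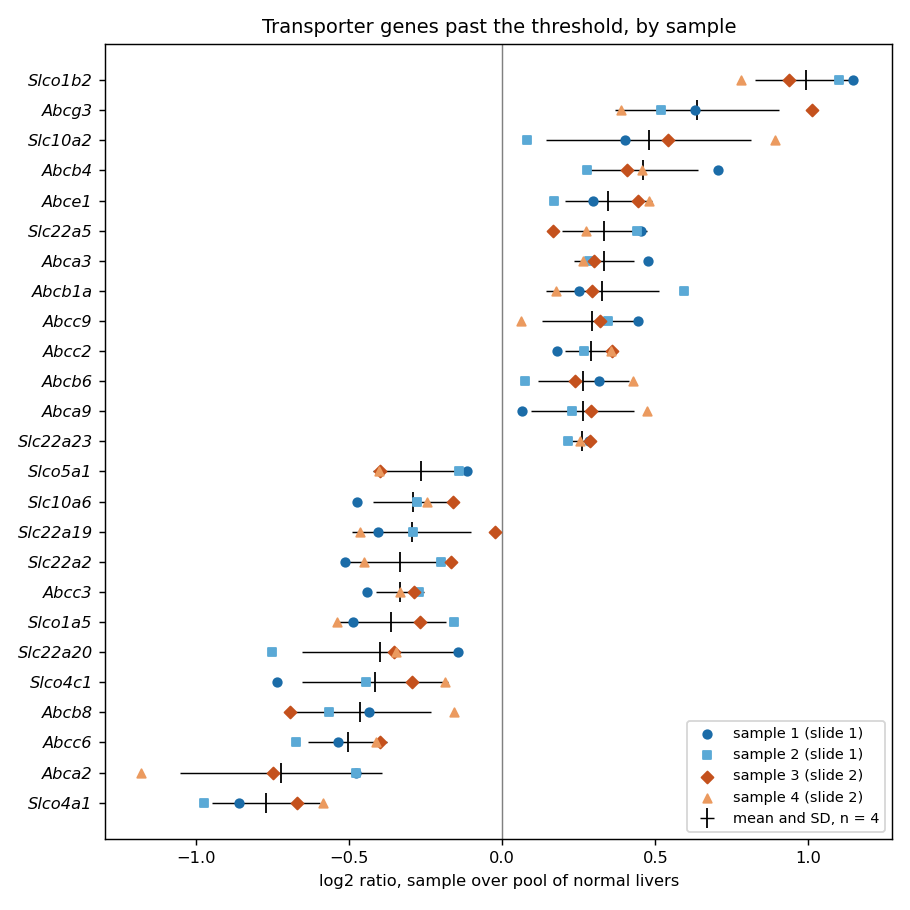
Of the 26 called members, 25 in order of their mean log2 ratio (horizontal axis, sample over pool), with each of the 4 arrays as a point, the mean as a bar and the SD as a line. Slco1b2 stands apart at the high end, with all 4 arrays between 0.78 and 1.15, and Slco4a1 at the low end, between -0.97 and -0.59.

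Among the 7 hepatocyte uptake genes, 5 were not called and had means from -0.17 to 0.10. Those called were 1 higher and 1 lower, or 28.6%, against 35.4% of all genes. The higher one was Slco1b2, a sinusoidal carrier of bile acids, bilirubin and drugs in mouse liver, which had log2 ratios of 1.15, 1.099, 0.94 and 0.78 on replicates 1 to 4. No array came near 0. The mean was 0.99 ± 0.17 (limma, adjusted p = 0.000964), a signal 1.99-fold that of the pool. Both of its probes, shown above, were called.

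Of the uptake genes that were not called, Slc10a1, the main sodium-dependent bile acid carrier of hepatocytes (NTCP), had 0.31, -0.39, 0.20 and 0.08, with 1 array of opposite sign and a mean of 0.05 ± 0.31. Slc22a7, an organic anion carrier read by 1 probe, had -0.33, 0.17, 0.36 and 0.19. Slco1a1 and Slco1a4, organic anion carriers of the mouse sinusoidal membrane, had -0.17 ± 0.16 and -0.11 ± 0.17, and Slco2b1 had 0.02 ± 0.16. Of the 5 probes of Slco1a4, 1 was called higher, at 0.42, and 1 lower, at -0.43. Of the 2 probes of Slco1a1, 1 was called lower, at -0.43. The signs of Slc10a1 and Slco2b1 turned without 1 replicate or another, so no direction is given for them. Slc22a7 had 0.38 after correction for G and C content, where it was called (limma, adjusted p = 0.0374).

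Among the 7 canalicular genes, 3 were called higher and 0 lower by limma, with a median of 0.25, and 6 of the 7 means lay above 0. Over all genes 16.1% were called higher and 19.3% lower, and 9844 of 20445 means lay above 0. With 7 genes these counts do not establish a shift of the set. At an unadjusted p under 0.05 the counts were 4 higher and 0 lower, where 23.2% of all genes were higher and 26.5% lower. Abcb4, which moves phosphatidylcholine into bile, had 0.71, 0.28, 0.41 and 0.46. Every array lay above the pool, with a mean of 0.46 ± 0.18 (limma, adjusted p = 0.00757). Of its 3 probes, those with means of 0.61 and 0.85 were called, and the third had -0.08 ± 0.27.

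Abcb1a, a P-glycoprotein that exports drugs, had 0.25, 0.59, 0.29 and 0.18 and a mean of 0.33 ± 0.18 (limma, adjusted p = 0.0246). Abcc2, which exports bilirubin conjugates and other organic anions, had 0.18, 0.27, 0.36 and 0.35 and a mean of 0.29 ± 0.09 (adjusted p = 0.0155). Both were above 0 on all arrays, and both lost their calls when some replicates were left out. Abcb1a lost its call without replicates 1, 2 or 3, at 0.35, 0.24 and 0.34 (limma, adjusted p = 0.0558, 0.0704 and 0.0632), and relative to the probes around it, at 0.27 (adjusted p = 0.0542). Abcc2 lost it without replicates 3 or 4, at 0.27 each (limma, adjusted p = 0.0567 and 0.0553), and with normexp background correction it had 0.01.

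The bile salt export pump gene Abcb11 had a gene mean near 0 and probes far from 0 on both sides. Its 4 arrays gave 0.12, 0.05, 0.08 and -0.00011, with a mean of 0.06 ± 0.05 (limma, adjusted p = 0.436). Its 6 probes had means of 0.83, -0.15, -0.39, 0.07, -0.68 and 0.71, in order along chromosome 2 from 69097552 to 69174694. The 2 probes shown above are the extremes of this set. On the array order of replicates 1 to 4, the highest read 0.95, 0.60, 0.81 and 0.96 and the lowest -0.51, -0.69, -0.81 and -0.71. These extremes kept their signs on all arrays and opposed each other, whereas the probes at -0.39 and 0.07 changed sign between arrays. Abcb11 had the widest range of probe means among members with at least 3 probes.

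Abcg5 and Abcg8, whose proteins pair to export sterols, had -0.07 ± 0.09 and 0.25 ± 0.28, and neither was called. Abcg2, an exporter of urate and drugs, had 0.13, 0.31, 0.24 and 0.23, all above 0, with a mean of 0.23 ± 0.07 that missed the size limit (limma, adjusted p = 0.0311). One of its 3 probes had 0.81 ± 0.16, and the others had 0.13 and -0.26. On probes well above background everywhere, Abcg2 and Abcg8 had 0.45 and 0.31 and were called (limma, adjusted p = 0.00133 and 0.00879).

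**Figure D2:**
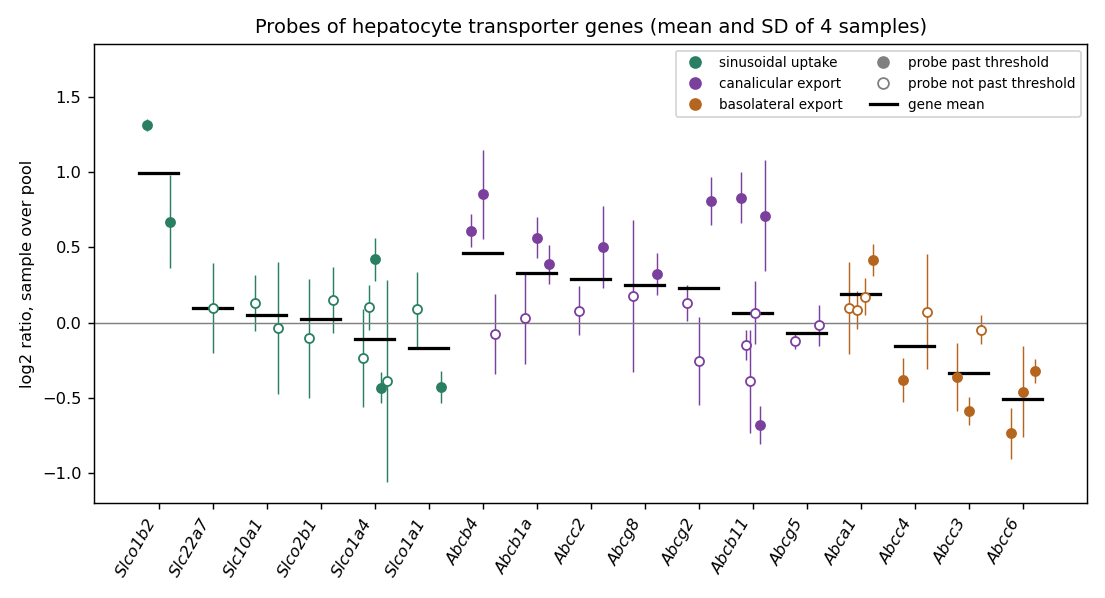
Mean log2 ratio of every probe (points, with the SD of 4 arrays as lines, filled where the probe was called) of 17 of the 18 hepatocyte transporter genes, coloured as uptake, canalicular and basolateral, with the gene mean as a bar. The 6 probes of Abcb11 spread from -0.68 to 0.83 around a gene mean of 0.06, whereas both probes of Slco1b2 and all 3 of Abcc6 lie on 1 side of 0.

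Among the 4 basolateral exporters, 0 were called higher by limma and 2 lower, with a median of -0.24, and at an unadjusted p under 0.05 there were 1 and 2. The shares over all genes are those given for the canalicular genes. Abcc6, a hepatic ABCC protein whose loss causes ectopic mineralisation, had -0.53, -0.67, -0.40 and -0.41. Its arrays all lay far below 0, with a mean of -0.51 ± 0.13 (limma, adjusted p = 0.00374), a signal 0.705-fold that of the pool. All 3 probes were called lower, at -0.74, -0.46 and -0.32. The deposited log2 table gave a mean of -0.81. Abcc3, which exports conjugated bile acids and glucuronides to blood, had -0.44, -0.27, -0.29 and -0.33 and a mean of -0.33 ± 0.08 (adjusted p = 0.00898). Probes of other genes around Abcc3 also lay below the pool, at -0.18, and the gene lay at -0.15 ± 0.08 relative to them, where it was not called (adjusted p = 0.136).

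Abca1, which loads cholesterol onto apolipoprotein A1, had 0.19 ± 0.12 and was not called, and the probes around it had 0.25. Abcc4, an exporter of bile acids and cyclic nucleotides, had -0.15 ± 0.19 and was not called either. Its probe well above background everywhere had -0.40 (limma, adjusted p = 0.00351). Together the 18 hepatocyte genes had 4 called higher and 3 lower, or 38.9%, with a median of 0.06. That share, too, lies near the background of 35.4%, and the median near the -0.01 of all genes.

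The bile acid and solute genes outside these families, 21 measured of 24 names, had 6 called higher and 2 lower, or 38.1%, with a median of 0.14. This share lies near the 35.4% of all genes, of which 16.1% were higher and 19.3% lower. At an unadjusted p under 0.05 by limma 10 were higher and 6 lower, where 23.2% and 26.5% of all genes were. Cyp7a1, the rate-limiting enzyme of bile acid synthesis, had 0.66 ± 0.19 (limma, adjusted p = 0.00300), and Baat, which conjugates bile acids, 0.33 ± 0.13 (adjusted p = 0.0150). Osta, a subunit of the basolateral organic solute transporter, had 1.07 ± 0.22 (adjusted p = 0.00115). Slc27a2, an acyl-CoA synthetase of liver, had 2.45 ± 0.26, and Slc2a2, the glucose transporter GLUT2, 0.99 ± 0.12. Tap1 and Tap2, the peptide transporter of antigen presentation, lay apart at 0.46 ± 0.32 and -0.52 ± 0.10. Nr1h3, a sterol-sensing nuclear receptor, had -0.48 ± 0.28.

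Of the 11 other Slco genes, 0 were called higher by limma and 4 lower, and their median was -0.08. The counts were the same at an unadjusted p under 0.05. The backgrounds are those given above, 16.1% higher and 19.3% lower among calls and 23.2% and 26.5% unadjusted. Slco4a1, an organic anion and thyroid hormone carrier found in many tissues, had the lowest mean of all members in the processing used for the calls. It had -0.86, -0.97, -0.67 and -0.59, with no array near 0, and a mean of -0.77 ± 0.18 (limma, adjusted p = 0.00174). Its 4 probes all had means below 0, at -1.35, -0.42, -0.68 and -0.63, and 3 were called. On no array did the sample channel of the probe at -1.35, one of those shown above, reach well above background. There the pool was at least 2.50-fold brighter as a geometric mean over the 4 arrays. That bound sets the sample channel, on each array, at the higher of its own signal and the lowest signal of any probe well above background. On the probes well above background in both channels on all arrays the mean was -0.68 and the call was kept (limma, adjusted p = 0.000241), and with normexp it was -0.47. In both of these settings Abca2 lay lower, at -0.74 each. Abca2 also lay lower in the deposited log2 table, at -0.95 against -0.88, and with the median over probes, at -0.72 against -0.69.

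Slco4c1, an organic anion carrier of kidney, had -0.74, -0.45, -0.29 and -0.19 and a mean of -0.42 ± 0.24 (limma, adjusted p = 0.0187). It lost its call without replicate 2, at -0.41 (adjusted p = 0.0607). Slco1a5 had -0.49, -0.16, -0.27 and -0.54 and a mean of -0.36 ± 0.18 (adjusted p = 0.0169). Its call was lost without replicates 1 or 4, at -0.32 and -0.31 (limma, adjusted p = 0.0626 and 0.0583). At the other end, the 4 probes of Slco2a1, a prostaglandin carrier, and the 3 of Slco6d1 lay within narrow ranges, with gene means of -0.07 ± 0.06 and -0.14 ± 0.18.

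The other Slc22a genes were called in both directions. Of 6 cation and carnitine carriers 1 was higher and 1 lower, or 33.3%, and of 8 anion carriers and orphans 1 was higher and 2 lower, or 37.5%. For these and the sets below, the background over all genes was 16.1% higher and 19.3% lower, or 35.4%. In sets this small the counts are not a result about the set. Slc22a5, which takes up carnitine, had 0.45, 0.44, 0.16 and 0.27 and a mean of 0.33 ± 0.14 (limma, adjusted p = 0.0152). It lost its call without replicates 1 or 2, at 0.29 and 0.30 (limma, adjusted p = 0.0575 and 0.0586), and had 0.12 with normexp. Slc22a2, the organic cation transporter of kidney, had -0.51, -0.20, -0.17 and -0.45 and a mean of -0.33 ± 0.18 (adjusted p = 0.0215). Without replicates 1 or 4 it had -0.27 and -0.29 and was not called (limma, adjusted p = 0.0749 and 0.0737), and with normexp it had -0.18, short of the size limit.

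Slc22a20, an organic anion carrier of olfactory mucosa in mice, had -0.14, -0.75, -0.35 and -0.35 and a mean of -0.40 ± 0.25 (limma, adjusted p = 0.0246). Most of this came from 1 of 4 probes, at -1.14 ± 0.91, whose sample channel was near background on every array. There the pool was at least 1.68-fold brighter as a geometric mean over the 4 arrays, though replicate 1 had only -0.18. With normexp the gene had 0.05, on probes well above background -0.14, and neither value was called. It also lost its call without replicates 2, 3 or 4, at -0.28, -0.41 and -0.42 (limma, adjusted p = 0.0589, 0.0624 and 0.0595). Slc22a19, an anion carrier of kidney, had -0.41, -0.29, -0.03 and -0.46 and a mean of -0.30 ± 0.19 (adjusted p = 0.0375). Relative to the probes around it, which had -0.18, it lay at -0.12 and was not called (adjusted p = 0.369). Without replicates 1, 2 or 4 it had -0.26, -0.30 and -0.24 and was not called (limma, adjusted p = 0.120, 0.0974 and 0.120).

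Of the 3 other Slc10a genes 1 was called in each direction, or 66.7%, against 35.4% of all genes, a share of too few genes to compare. Slc10a2, the ileal bile acid carrier, had 0.40, 0.08, 0.54 and 0.89 and a mean of 0.48 ± 0.34 (limma, adjusted p = 0.0264). Its arrays shared a sign but not a size, and the call was lost without replicates 1, 3 or 4, at 0.50, 0.46 and 0.34 (limma, adjusted p = 0.0639, 0.0808 and 0.0648).

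Of 17 Abca and Abcg lipid transporter genes outside the hepatocyte lists, 3 were called higher and 1 lower, or 23.5%, against 35.4% of all genes. Abca2, a lipid transporter of endolysosomes in brain, had -0.48, -0.48, -0.75 and -1.18. All arrays lay well below 0, with a mean of -0.72 ± 0.33 (limma, adjusted p = 0.00653). Its probe with 43.8% G and C had -1.01 ± 0.22 and was called, and its probe with 33.3% had -0.43 ± 0.50 and was not. Abca3, which fills lamellar bodies with surfactant lipid in lung, had 0.48, 0.28, 0.30 and 0.27 and a mean of 0.33 ± 0.10 (adjusted p = 0.0107). With the median over probes in place of the mean it had 0.24 and was not called (adjusted p = 0.0566).

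Abcg3 had 0.63, 0.52, 1.01 and 0.39 and a mean of 0.64 ± 0.27 (limma, adjusted p = 0.00593). This value rests on a probe at 1.42 ± 1.02, with arrays from 0.14 to 2.31, whose signal was near background in both channels. The other probes had 0.39 and 0.10. No probe of the gene was well above background in both channels on all arrays, and the size is not established. The gene had 0.35 with normexp, 0.38 in the deposited log2 table and 0.30 with the median over probes, and was called in each. The 3 probes of Abca8a had the narrowest range among members with at least 3 probes, around a gene mean of -0.002 ± 0.16.

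Among the 6 ABCB genes outside the hepatocyte lists 1 was called higher and 1 lower, or 33.3%, near the 35.4% of all genes. Abcb1b was counted here and not among the canalicular genes. Abcb8, a protein of the inner mitochondrial membrane, had -0.43, -0.57, -0.69 and -0.16 and a mean of -0.46 ± 0.23 (limma, adjusted p = 0.0119). Its probes differed as shown above, -0.99 against 0.06, so 1 probe carries the value. After correction for G and C content the mean was -0.25 and the gene was not called (adjusted p = 0.0786), and in the deposited log2 table it was -0.73. Among the 6 other ABCC genes 1 was called higher and 0 lower by limma, with 2 and 1 at an unadjusted p under 0.05. This was Abcc9, the sulphonylurea receptor subunit of potassium channels, with 0.44, 0.35, 0.32 and 0.06 and a mean of 0.29 ± 0.16 (adjusted p = 0.0293). Its call was lost without replicates 1, 2 or 3, at 0.24, 0.28 and 0.28 (limma, adjusted p = 0.101, 0.0934 and 0.0866). Abcc1, an exporter of glutathione conjugates, had probes at -0.12, -0.57 and 0.81 and a gene mean of 0.04 ± 0.18, whose sign turned without replicates 2 or 4.

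Of the 3 peroxisomal Abcd genes 0 were called by limma, and 1 had an unadjusted p under 0.05, Abcd3, which imports fatty acids and bile acid precursors, at 0.28 ± 0.23 (adjusted p = 0.0631). Of the 4 soluble Abce and Abcf genes 1 was called higher, or 25%, against 35.4% of all genes. Abce1, which recycles ribosomes, had 0.30, 0.17, 0.44 and 0.48 and a mean of 0.35 ± 0.14 (limma, adjusted p = 0.0139). It lost its call without replicates 3 or 4, at 0.31 and 0.30 (limma, adjusted p = 0.0521 and 0.0505), and with normexp it had 0.21, short of the size limit.

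Probes of 1 gene could disagree. Of the 245 probes, 49 were called higher and 42 lower, against 18.2% and 18.8% of 52385 autosomal probes, or 36.9% in all. In 9 members, Abcb11 and Abcc1 among them, some probes were called higher and others lower. These are 11.7% of the 77 members with more than 1 probe, near the 10.6% of all 11768 such genes. Of 25 called members with more than 1 probe, 20 had all probe means on 1 side of 0, and only Slco1b2 and Abcc6 had every probe called. There were 5 probes not well above background in either channel and 13 in the sample channel alone, in 17 members, and 0 in the pool channel alone.

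The ratio of a probe varied with its G and C content. Pearson's r between both was -0.29 over the 245 probes of members and -0.13 over 52385 autosomal probes. This is across probes, which share the arrays and are not replicates. Of the 18 member probes with more than 40% G and C, 14 lay below 0, 8 (44.4%) were called lower and 0 higher, and their median was -0.23. Over all 4338 autosomal probes with more than 40%, 3126 lay below 0, 40.3% were called lower and 8.44% higher, and the median was also -0.23. Of the 81 member probes with at most 35%, 20 (24.7%) were called higher and 4 (4.94%) lower, against 20.7% and 14.6% of all such probes. Their median was 0.09, against 0.04 over all such probes. The lowest probes of Slco4a1, Abca2, Abcb8, Abcc1 and Abcc6 are all among those above 40%. Other low probes are not: the lowest of Slc22a20, at -1.14, holds 36.7% and that of Abcb11, at -0.68, holds 38.3%. After correction for G and C content 13 members were called higher and 9 lower, or 26.8%, where the background was 32.9%.

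**Figure D3:**
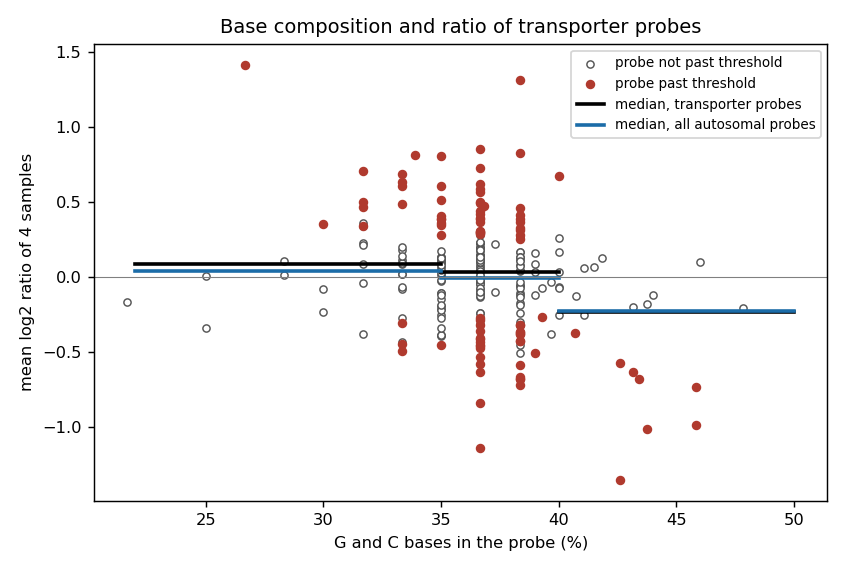
Mean log2 ratio of the 245 probes of members (vertical axis, mean of 4 arrays, filled where the probe was called) against the G and C content of the probe in percent (horizontal axis), with medians for 3 ranges of content as lines for members and for all autosomal probes. Of the 18 probes above 40%, 14 lie below 0, and none was called higher.

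Several families lie in clusters. The neighbouring genes named here by their place were taken after their values were seen. The largest cluster, on chromosome 6 from 141479044 to 142567720, holds 7 members read by 17 probes. Along it, Slco1c1 had 0.09 ± 0.19, Slco1b2 0.99 ± 0.17, Slco1a4 -0.11 ± 0.17, Slco1a1 -0.17 ± 0.16, Slco1a6 -0.08 ± 0.43, Slco1a5 -0.36 ± 0.18 and Abcc9 0.29 ± 0.16. The 18 probes of other genes in the same stretch had a median of 0.02. The probes of Slco1b2 start at 141597036 and end at 141606156, and the gene lay 1.05 ± 0.22 above the probes within 1 Mb (limma, adjusted p = 0.00130).

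On chromosome 5, Abcb1a, Abcb1b and Abcb4 lie within 0.245 Mb. Abcb1a and Abcb4 were called higher, and Abcb1b, the second P-glycoprotein gene, lay between them at -0.50, -0.43, 0.14 and -0.26 without a call. Of its 2 probes, the one at -0.58 was well above background in neither channel on any array, and the other had 0.05. With normexp Abcb1b had 0.24 and on probes well above background 0.03, so no direction is given for it. Abca14, Abca15 and Abca16 on chromosome 7 hold the most probes of any cluster, 27, and had means of 0.23 ± 0.05, 0.20 ± 0.07 and 0.07 ± 0.12, none past the size limit. Probes of other genes within 1 Mb had medians of 0.15 to 0.17 there. The copies in such clusters are alike in sequence, and whether a probe also bound a neighbouring copy was not tested.

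**Figure D4:**
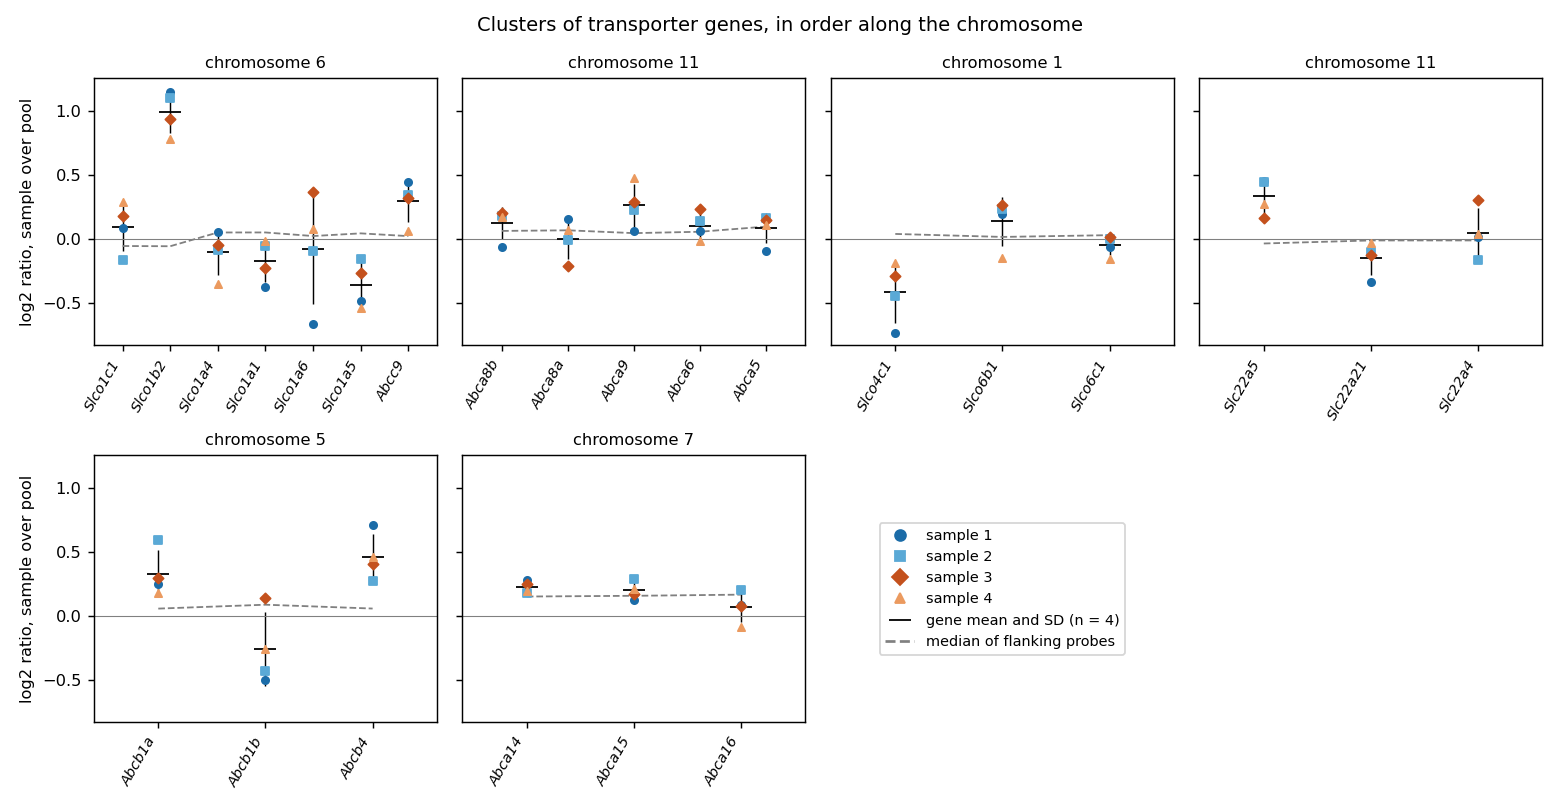
Log2 ratio (vertical axis, sample over pool) of the genes in 6 clusters of at least 3 members, in order along each chromosome, with each array as a point, the gene mean as a bar, the SD as a line and the flanking probes as a dashed line. In the chromosome 6 cluster Slco1b2 lies at 0.99 while the 6 others lie between -0.36 and 0.29.

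Against the probes of other genes within 1 Mb on either side, 9 members were called higher and 8 lower, or 20.7%, where the background was 30.6% of 20292 genes, 15% higher and 15.6% lower. All 17 had been called against the pool with the same sign, and 0 members were called only here. The highest were Slco1b2 at 1.05 ± 0.22 and Abcg3 at 0.61 ± 0.22, and the lowest Slco4a1 at -0.57 ± 0.14, Abca2 at -0.51 ± 0.32 and Abcc6 at -0.49 ± 0.09. Of the calls lost, Abce1 lay at 0.14 ± 0.15 over probes that themselves had 0.21, and Slc22a20 at -0.13 ± 0.27 over probes at -0.27. On chromosome 8, which holds Slc10a2, Slc10a7, Abce1, Abcc12 and Abcb10, Slc10a2 lay 0.39 ± 0.26 above its surroundings and was called, whereas Abcc12, chosen after its value was seen, had 0.18 among probes at 0.33.

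**Figure D5:**
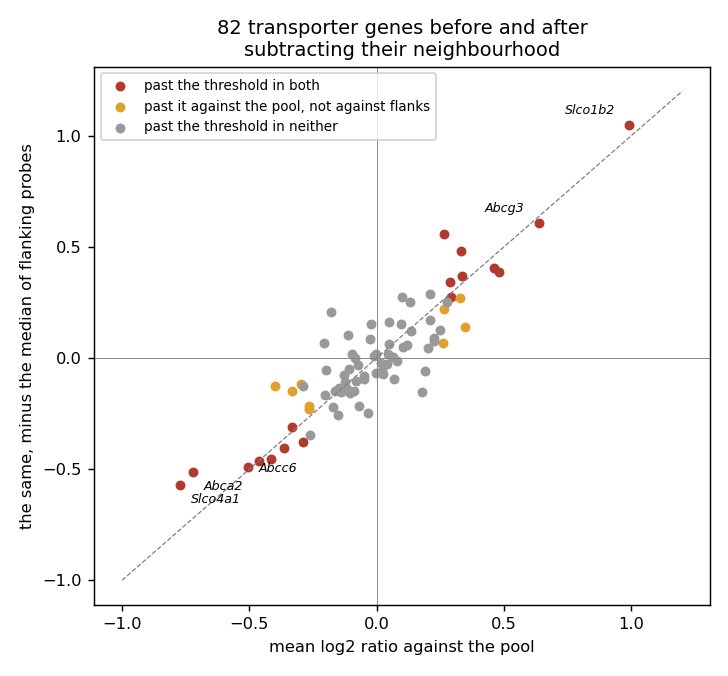
Mean log2 ratio of each of the 82 members against the pool (horizontal axis) and after subtracting the median of the probes of other genes within 1 Mb (vertical axis), over 4 arrays, coloured by whether the gene was called in both, against the pool alone or in neither. The dashed line marks equal values, and Slco1b2 (0.99 and 1.05) and Slco4a1 (-0.77 and -0.57) are the extremes on both axes.

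The slides gave no member a call. On slide 2 minus slide 1, 0 members had an adjusted p under 0.05 by limma, as had 0 of all genes, and 4 members had an unadjusted p under 0.05, where 10.8% of all genes had one. Among the 4 are Abca2, with -0.96 on slide 2 against -0.48 on slide 1, and Slc10a2, with 0.72 against 0.24. Slides held different samples, so the 2 cannot be told apart.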

How the data were processed

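The scanner files hold deposited intensity values per spot, which Agilent Feature Extraction 10.10.1.1 had background-subtracted and dye-normalised, per the file headers. Probe positions are on mm9. The deposited log10 ratio column, processed Cy5 over processed Cy3 per the file headers, served as a check. The deposited log2 table of the same arrays served as an alternative. Each of its columns correlated best with its own array (r of 0.91 to 0.92), and its within-array normalisation is unknown.

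Control spots (3924) and outlier-flagged spots were left out and spots of 1 probe averaged. The log2 ratios of processed Cy5 over Cy3 were centred on each array's median of autosomal probes, with no loess or quantile step, and probes of 1 gene averaged. Genes, probes and genes minus flanking probes (within 1 Mb, at least 10 probes of other genes) were tested against 0 with limma 3.58.1 in R 4.3.3, with Benjamini-Hochberg adjustment over all autosomal genes or probes. Testing against the pool leaves out the spread between normal livers.

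Members and gene lists were chosen with earlier results of these data known. All 82 names are RefSeq symbols. A few genes are counted but not reported by name here. Otherwise, named were the targeted genes, all hepatocyte transporters listed, the 10 highest and 10 lowest called members, the called member of largest size per family, and the 3 genes with the widest and the 3 with the narrowest range of probe means among those with at least 3 probes. Alternatives were normexp (offset 50), centring on the mode, a filter on dim probes, outlier flags kept, the deposited log2 table, correction for flanking probes or for G and C content, the median over probes, a size limit of 0.5, genes with at least 3 probes, slide as a block or as 2 means, and leaving out each replicate.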

Additional observations from a re-analysis of the deposited data

Results flagged for a closer look

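In 2 of 38 named genes 1 array lay far from the 3 others, by Dixon's test at its critical value for 4 values, and chance flags about 1 in 20. Abca3 had 0.48 on replicate 1, where the nearest other array had 0.30, and the gene kept its call without that replicate. Slco6d1 had 0.12 on replicate 1, where the nearest other array had -0.19. Slco6d1 was not called with or without it. The cause was not tested.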

How the results depend on the processing

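Of the 26 called members, 9 were called in all 8 processing alternatives and 9 without any 1 replicate, with 5 in both. Abcg3 gave no value on probes well above background. The number of arrays limits all counts: without replicates 1, 2, 3 and 4, 12, 10, 10 and 12 of the 26 calls were lost, and 12 with slide means as 2 samples, where 2 values are left for each gene. With slide as a random block the counts were 13 and 13, as before. No paired analysis was possible because there was 1 group.

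With slide means, 5 members were higher against 13, 2 hepatocyte genes against 4 and 32 probes against 49. In either direction 17.1% of members were called there, against 25.2% of all genes. With the size limit of 0.5, 2 members were higher and 3 lower, 1 hepatocyte gene was higher and 1 lower, and 18 probes were higher and 18 lower. At that limit 11.7% of all genes were called. Among the 38 members with at least 3 probes, 7 were higher and 6 lower, or 34.2%, where 26.3% of all such genes were called. With correction for flanking probes 8 members and 1 hepatocyte gene were lower, and 20.7% of members were called either way, against 30.6% of all genes. Leaving out 1 replicate gave 6 to 9 members higher and 6 to 12 lower, 2 to 3 hepatocyte genes higher and 2 to 3 lower, and 27 to 33 probes higher and 23 to 31 lower. The members called were then 17.1% to 22%, against 26.7% to 29.2% of all genes. No member differed between slides in any processing alternative.

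Among the 36 members named by the rules given above, the sign turned for 8, of which only Slc22a20 had been called. With normexp these were Abca8a at 0.053, Abcb11 at -0.0084, Slc22a20 at 0.053, Slco2b1 at -0.11 and Slco6d1 at 0.20. With correction for flanking probes they were Abca1 at -0.058, Abcc1 at -0.027 and Slco2b1 at -0.073. Abca8a had 0.017 on probes well above background and 0.037 in the deposited log2 table, where Abcc1 had -0.036. With the median over probes Abcb11 had -0.0055 and Abcc1 -0.11. Slco2b1 had -0.0064 when centred on the mode and -0.0094 with correction for G and C content. Leaving out each replicate in turn, Abca8a ranged from -0.053 to 0.069, Abcc1 from -0.0088 to 0.115, Slc10a1 from -0.038 to 0.195 and Slco2b1 from -0.048 to 0.074. Members named only by their place were not counted in the 8. Among them the sign turned for Abcb1b, at 0.24, and Slco1a6, at 0.12, with normexp. It also turned for Abcc12, at -0.15, and Abca16, at -0.10, with correction for flanking probes. The cause was not tested.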

Other observations

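Of the genes of these families on X, Slc10a3, read by 1 probe, had log2 ratios of -0.46, -0.29, -0.41 and -0.26 on replicates 1 to 4, with a mean of -0.36 ± 0.09 (SD, n = 4). The median of all 2172 X probes was -0.86 ± 0.02. The labels do not give the sex of the samples or of the pool.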
